A study of Homo sapiens with 6 samples.

Results

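Triglyceride synthesis and lipid droplet storage were followed through 10 genes, GPAM, AGPAT2, LPIN1, LPIN2, LPIN3, DGAT1, DGAT2, PNPLA2, PNPLA3 and PLIN2. They were taken by gene symbol from a deposited table of 60612 genes, each symbol matched 1 row, and all 10 passed the filter on low counts that left 14990 genes for testing. The study infected HepG2, a line derived from a human liver cancer, with lentivirus carrying an shRNA. In 3 libraries, labelled sh-circPRKAA1, the shRNA was directed against circPRKAA1, a circular RNA from the locus of PRKAA1, an AMPK subunit gene, and in 3, labelled sh-ctrl, it was a control shRNA. The shRNA label of 2 of the sh-circPRKAA1 samples reads circPRKAA2 and circPRKAA3 instead, while all 3 titles name circPRKAA1. All 6 samples have the genotype label WT, are of this 1 line and received a lentivirus. The table has no entry for the circle, so its level was not measured and the sh-circPRKAA1 libraries are called knockdown by their label only.

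A triglyceride is built on glycerol 3-phosphate. Acyltransferases add fatty acids to make phosphatidic acid, lipins remove its phosphate to give diacylglycerol, and DGAT enzymes add the last fatty acid. The product is stored in lipid droplets coated by perilipins, and lipases of the PNPLA family take it apart again. Diacylglycerol also feeds the synthesis of phosphatidylcholine and phosphatidylethanolamine, and liver cells export part of their triglyceride in lipoproteins. SREBP1, which the series title places downstream of circPRKAA1, is a transcription factor known to drive fatty acid synthesis and several of these genes, among them GPAM and PNPLA3.

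The 10 genes did not move as a block. All 3 lipin genes were higher in the knockdown libraries, and both DGAT genes, PNPLA3, PLIN2 and AGPAT2 were lower, while GPAM and PNPLA2 did not pass. Thus 3 of 10 rose and 5 fell (edgeR quasi-likelihood test, Benjamini-Hochberg adjusted p under 0.05 over all genes tested). Over all 14990 genes 36.1% were called higher and 32.4% lower, or 68.4% in either direction, so 8 called genes of 10 lie near that background. Of the calls 52.7% were higher, a share that was 65.7% under library totals, 71.6% under TPM scaling and 41.9% once GC content and gene length entered as offsets. CPM of the groups did not overlap for 8 of the 10 genes, against 72.1% of all genes tested. At 2-fold or more LPIN2 and LPIN3 were higher and DGAT2 and PNPLA3 lower, that is 4 of 10, beside 14.1% of all genes tested that were higher and 7.99% that were lower by this much. Which genes reach 2-fold depends on scaling. With TPM scaling the log2 fold changes were -0.90 for DGAT2, -0.75 for PNPLA3, 1.11 for LPIN1, 1.82 for LPIN2 and 1.37 for LPIN3. The median log2 fold change, knockdown over control, was -0.19 for the 10 genes and 0.05 for all genes tested. Levels of single genes are given as CPM, counts scaled by TMM factors to a common library total. Levels of different genes are compared as FPKM, which takes exonic length into account and uses plain library totals, without TMM factors. These factors were 1.053 to 1.082 in knockdown and 0.918 to 0.9467 in control libraries. Set against the controls, knockdown levels are therefore higher in FPKM than in CPM.

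**Figure D1:**
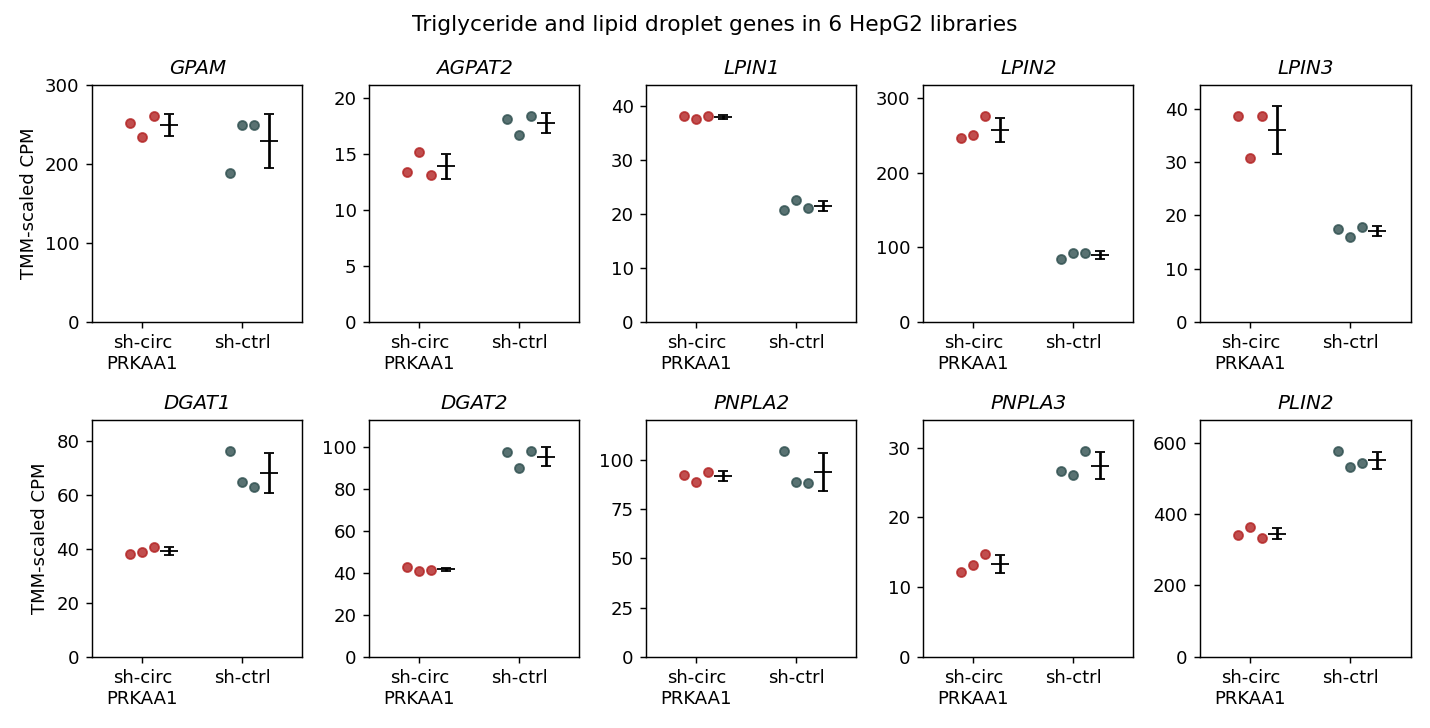
TMM-scaled CPM of the 10 genes (y axis, from 0, a separate scale per gene) in the 3 sh-circPRKAA1 and 3 sh-ctrl libraries; points are libraries, and the bar beside them is the mean with its SD. The knockdown libraries lie above all controls for LPIN1, LPIN2 and LPIN3, and below all controls for AGPAT2, DGAT1, DGAT2, PNPLA3 and PLIN2. For GPAM and PNPLA2 the groups overlap.

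The libraries held 16348435 to 17549690 counts in the knockdown group and 16284262 to 20282496 in the control group. Log2 CPM correlated at 0.993 for each pair of knockdown libraries and at 0.988 to 0.992 for pairs of controls. Counts fell on genes with a mean GC content of 48.8 to 49.0% in knockdown and 49.9 to 50.7% in control libraries. Mitochondrial genes took 10.1 to 11.1% of counts in knockdown and 9.44 to 9.80% in control libraries, and 23788 to 24190 genes had a count in knockdown against 21073 to 22254 in control libraries. One growth label calls the cells mesenchymal and another label epithelial. All 15 hepatocyte marker genes were tested, with a summed level of 12500 to 12700 FPKM in knockdown and 13400 to 13600 FPKM in control libraries. Of them 4 were higher, 7 lower and 4 did not pass. HNF4A, a transcription factor of hepatocyte identity, and the apolipoprotein gene APOA1 fell by 1.49 and 1.10 on the log2 scale, and APOB, FGB, FGA and FGG, an apolipoprotein and the fibrinogen chains, rose by 0.66, 0.59, 0.39 and 0.39. Of 9 mesenchymal markers 2 passed the filter, ACTA2 and PDGFRB, which fell by 0.40 and 0.65, and the others, collagen genes included, averaged at most 0.239 CPM in either group. Of 9 adipocyte markers 3 passed the filter and did not pass the test, CIDEC (log2 fold change -0.20), PLIN4 (0.42) and CD36 (0.51), with means of 1.73 to 7.29 CPM in knockdown and 1.21 to 8.41 CPM in control libraries. In the same list ADIPOQ, LPL, LEP and FABP4 averaged at most 0.0189 CPM, the last 2 having 0 counts throughout, and the list summed to 4.73 to 5.18 FPKM in knockdown and 3.96 to 5.59 FPKM in control libraries. The immune and endothelial list summed to 378 to 397 FPKM in knockdown and 410 to 465 FPKM in control libraries, of which LYZ, a lysozyme gene, made up 382 and 432 FPKM on average. LYZ fell by 0.38, and CD14, a monocyte marker, rose by 1.19 at 3.49 ± 0.493 CPM in knockdown and 1.57 ± 0.835 CPM in control libraries (SD, n = 3 each). The part that any of these markers, depth, the number of genes detected or base composition has in the results was not tested, and in bulk RNA a change in the number of cells of a type and in their RNA per cell cannot be told apart.

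GPAM encodes the mitochondrial acyltransferase that puts the first fatty acid on glycerol 3-phosphate (ENSG00000119927, GRCh38 chromosome 10, 112149865 to 112215377, minus strand). It stood at 252, 234 and 261 CPM in the knockdown libraries and at 189, 249 and 249 CPM in the controls. The groups overlap, and control replicate 1 is the lowest of the 6 libraries. On the log2 scale the fold change came to 0.12 with a 95% interval of -0.08 to 0.32 (edgeR adjusted p = 0.27), and without control replicate 1 to -0.02. The call changed with scaling: GPAM passed as higher with library totals (0.32), TPM scaling (0.41) and quantile normalization (0.39). It also passed as higher with limma on log2(FPKM + 1) (0.32) and on log2(FPKM + 0.1) (0.33), but not with limma without the low-count filter (0.32). With offsets for GC content and length it passed as lower (-0.40).

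AGPAT2, the acyltransferase that adds the second fatty acid and whose loss in humans causes congenital lipodystrophy, had the smallest call (ENSG00000169692, chromosome 9, 136673143 to 136687457, minus strand). Its levels were 13.4, 15.2 and 13.1 CPM in knockdown libraries against 18.1, 16.7 and 18.4 CPM in controls, with no overlap. The counts behind them were 231 to 281 in knockdown and 271 to 329 in control libraries. Its log2 fold change of -0.35 ± 0.11 (SE; adjusted p = 0.00997 in edgeR) shrank to -0.15 with library totals and -0.02 with GC and length offsets. It no longer passed in either, nor without knockdown replicate 3 (-0.31; adjusted p = 0.0515 in edgeR, where the 21 alternatives gave values between 0.00143 and 0.902).

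The lipins are phosphatidate phosphatases, and LPIN1 is also known as a nuclear coactivator of fatty acid oxidation genes. LPIN2 is the lipin most abundant in liver, and the transcript with the greatest change of the 10 genes (ENSG00000101577, chromosome 18, 2916994 to 3013315, minus strand). It reached 246, 250 and 276 CPM in the knockdown libraries, against 83.8, 91.6 and 92.8 CPM in the control libraries. Every knockdown library was far above every control. This is a log2 fold change of 1.52 ± 0.08 (SE; adjusted p = 1.7e-10 in edgeR), and 6.53% of all genes tested had a larger one. RefSeq gives LPIN2 more than one start, and the sequences before a pair of them are shown because they differ in base composition and the gene counts do not say which is used. Each line gives the 250 bases before a start, 5′ to 3′ on the gene's strand (RefSeq, GRCh38.p14).
LPIN2 chr18:3013145-3013394, minus strand: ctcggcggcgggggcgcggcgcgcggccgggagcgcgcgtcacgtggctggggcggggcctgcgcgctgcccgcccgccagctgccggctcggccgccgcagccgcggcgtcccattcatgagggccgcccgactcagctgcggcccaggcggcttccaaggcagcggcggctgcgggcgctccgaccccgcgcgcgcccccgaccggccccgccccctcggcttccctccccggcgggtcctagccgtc
LPIN2 chr18:3011948-3012197, minus strand: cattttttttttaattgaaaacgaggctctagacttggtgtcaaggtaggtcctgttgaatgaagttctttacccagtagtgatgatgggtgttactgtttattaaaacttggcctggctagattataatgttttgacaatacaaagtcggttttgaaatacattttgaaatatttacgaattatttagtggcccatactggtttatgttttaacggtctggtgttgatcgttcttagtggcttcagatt
GC content is 83.6% in the first and 34.8% in the second. Neither window, including the 50 bases after the start, has a match to the sterol regulatory element searched, TCACNCCAC, on either strand.

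LPIN3, another lipin with the same activity, had the next largest rise (ENSG00000132793, chromosome 20, 41340821 to 41360582, plus strand). It was at 38.6, 30.8 and 38.7 CPM in knockdown libraries and at 17.4, 16.0 and 17.8 CPM in controls, and the groups were well apart. Its log2 fold change amounted to 1.08 ± 0.11 (SE; adjusted p = 3.41e-07 in edgeR). Its exons share 617 bases with EMILIN3 on the other strand, which had 3 to 4 counts in knockdown and 8 to 23 in control libraries. LPIN1 (ENSG00000134324, chromosome 2, 11677595 to 11827409, plus strand) stood at 38.2, 37.6 and 38.2 CPM in the knockdown libraries, against 20.8, 22.6 and 21.1 CPM in the controls. The log2 fold change, 0.82 ± 0.09 (SE; adjusted p = 7.33e-07 in edgeR), came to 0.55 with GC and length offsets. The 3 lipins passed as higher in each of the 21 alternatives.

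Per exonic length the lipins together held 51.5, 48.9 and 56.2 FPKM in the knockdown libraries and 16.3, 17.8 and 18.0 FPKM in the controls, a ratio of means of 3.01. That ratio rests on library totals, without TMM factors. In TMM-scaled CPM the ratios of means were 2.88 for LPIN2, 2.11 for LPIN3 and 1.77 for LPIN1. LPIN2 made up most of the summed lipin FPKM in every library. Its share was 77.6 ± 1.56% in knockdown and 70.6 ± 1.24% in control libraries (SD, n = 3 each). The share of LPIN1 was 6.59 ± 0.347% in knockdown and 9.74 ± 0.455% in control libraries. That of LPIN3 was 15.8 ± 1.58% in knockdown and 19.7 ± 1.36% in control libraries, a difference of -3.85 percentage points that was -1.05 with GC and length offsets. A share within a library does not depend on scaling between libraries. For LPIN1 the groups do not overlap (two-sided exact permutation test p = 0.1, the smallest that 3 against 3 can give), so a p under 0.05 was out of reach. LPIN1 therefore rose in CPM while it held a smaller part of the lipin transcripts.

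**Figure D2:**
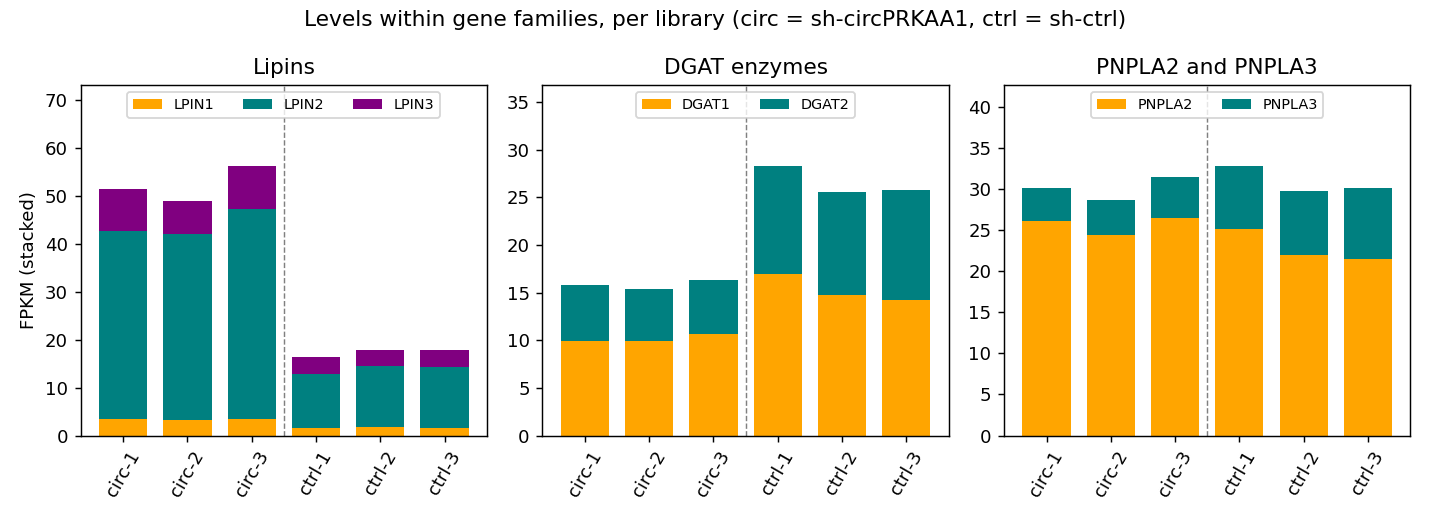
FPKM of the lipins, of DGAT1 and DGAT2, and of PNPLA2 and PNPLA3, stacked per library (x axis, sh-circPRKAA1 left of the dashed line and sh-ctrl right of it). The lipin sums are 48.9 to 56.2 in knockdown and 16.3 to 18.0 in control libraries, the DGAT sums 15.4 to 16.3 and 25.7 to 28.3, and PNPLA3 is the smaller part of its pair throughout.

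Both enzymes of the last step were lower. DGAT2, the acyltransferase tied to newly made fatty acids in liver (ENSG00000062282, chromosome 11, 75759512 to 75801535, plus strand), was at 42.6, 41.1 and 41.3 CPM in the knockdown libraries and at 97.7, 90.3 and 98.4 CPM in the controls. All knockdown libraries were below the lowest control by more than the range of either group. In log2 terms the fold change was -1.20 ± 0.08 (SE; adjusted p = 2.04e-09 in edgeR), and 4.92% of all genes tested had a lower one. DGAT1, an unrelated protein with the same activity that also re-esterifies fatty acids taken up or released (ENSG00000185000, chromosome 8, 144314584 to 144326910, minus strand), had 38.1, 39.0 and 40.9 CPM in knockdown libraries. In the controls it had 76.6, 64.9 and 63.0 CPM. Here the log2 fold change reached -0.79 ± 0.09 (SE; adjusted p = 9.67e-07 in edgeR), or -0.50 with TPM scaling. DGAT1 shares 139 exonic bases with HSF1 on the other strand, which was also lower (-0.47, edgeR adjusted p = 9.97e-05), and whether the counting used strand is not known here. Together the DGAT genes held 15.8, 15.4 and 16.3 FPKM in knockdown and 28.3, 25.7 and 25.9 FPKM in control libraries. DGAT2 made up 36.9, 35.6 and 34.6% of this in knockdown libraries, against 40.0, 42.1 and 44.9% in controls, a difference of -6.68 percentage points (two-sided exact permutation test p = 0.1, the smallest possible). The 2 groups of shares do not overlap. Per exonic length (4131 bases for DGAT1, 7904 for DGAT2), DGAT1 is the larger part in all 6 libraries. In counts the order is reversed, and DGAT2 has more than DGAT1 in each library.

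The lipases diverged. PNPLA2, adipose triglyceride lipase, takes the first fatty acid off stored triglyceride (ENSG00000177666, chromosome 11, 818914 to 825573, plus strand). It was at 92.6, 89.0 and 93.9 CPM in knockdown libraries and at 105, 89.0 and 88.3 CPM in controls, which overlap. Its log2 fold change of -0.04, with a 95% interval of -0.21 to 0.14 (edgeR adjusted p = 0.711), turned to 0.26 with TPM scaling and 0.21 with GC and length offsets, and passed as higher in both.

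PNPLA3 encodes a droplet protein of the PNPLA family that has been reported to limit the action of PNPLA2 on triglyceride. The gene is a known target of SREBP1 in liver cells (ENSG00000100344, chromosome 22, 43923792 to 43964488, plus strand). It had 12.1, 13.2 and 14.7 CPM in the knockdown libraries against 26.6, 26.1 and 29.6 CPM in the controls. No knockdown library came near a control. That gives a log2 fold change of -1.04 ± 0.11 (SE; adjusted p = 4.7e-07 in edgeR). PNPLA3 shares 148 exonic bases with SAMM50 on the same strand, which was lower by less (-0.50, edgeR adjusted p = 4.48e-05). Of the summed FPKM of PNPLA2 and PNPLA3, the share of PNPLA3 was 13.5, 15.1 and 15.8% in knockdown and 23.3, 26.0 and 28.7% in control libraries, a difference of -11.2 percentage points with no overlap (two-sided exact permutation test p = 0.1, the smallest possible). SREBF1, which encodes SREBP1, had 58.9, 56.7 and 56.4 CPM in knockdown libraries and 136, 117 and 118 CPM in controls (log2 fold change -1.11, edgeR adjusted p = 7.41e-09). GPAM, also named above as a gene driven by SREBP1, had a log2 fold change of 0.12 and did not pass. Whether SREBF1 has a part in the level of either gene was not tested.

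Of the 9 RefSeq windows found for 6 of the 10 genes (250 bases before to 50 after a start), that of PNPLA2 was the only one with a match to TCACNCCAC on either strand. LPIN3, DGAT1, DGAT2 and PNPLA3 had no window and were not searched. Of all 35116 RefSeq windows, 1.13% hold a match. The window is shown for this reason, with the match, which reads on the minus strand and begins 153 bases before the start, in capitals (250 bases before the start, 5′ to 3′).
PNPLA2 chr11:818664-818913, plus strand: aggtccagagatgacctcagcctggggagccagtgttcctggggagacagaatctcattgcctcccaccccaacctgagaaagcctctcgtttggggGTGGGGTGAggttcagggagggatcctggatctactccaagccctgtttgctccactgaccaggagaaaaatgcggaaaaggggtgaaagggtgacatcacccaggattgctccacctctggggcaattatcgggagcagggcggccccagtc
A match is a string of letters and not a known site. A direct repeat known as DR1, the element of PPAR receptors, was found in 0 of the 9 windows and in 0.0228% of all windows.

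PLIN2, the perilipin that coats droplets in liver cells and whose protein is degraded when not bound to one, was the most abundant of the 10 transcripts (ENSG00000147872, chromosome 9, 19108375 to 19149290, minus strand). It stood at 341, 363 and 332 CPM in the knockdown libraries and at 578, 531 and 544 CPM in the controls. The groups are separated by more than the range of either. The resulting log2 fold change of -0.67 ± 0.07 (SE; adjusted p = 3.68e-07 in edgeR) was -0.38 with TPM scaling and -0.33 with quantile normalization, and passed in all 21 alternatives.

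**Figure D3:**
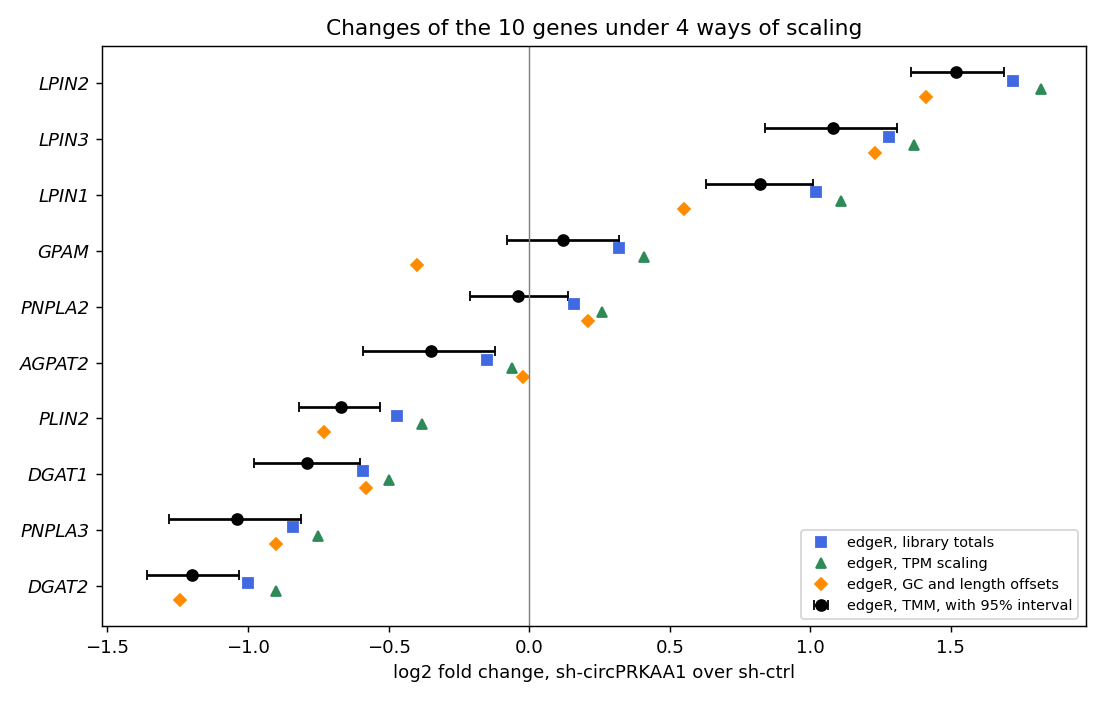
Log2 fold change (x axis, sh-circPRKAA1 over sh-ctrl) of the 10 genes with the 95% interval of the edgeR test under TMM (circles), and the same without interval under library totals (squares), TPM scaling (triangles) and GC and length offsets (diamonds). LPIN1, LPIN2 and LPIN3 stay above 0 and DGAT1, DGAT2, PNPLA3 and PLIN2 below 0 under all of these, while GPAM spans -0.40 to 0.41.

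In order of mean FPKM the knockdown libraries ran PLIN2 (73.8 ± 2.31), LPIN2 (40.5 ± 2.87), GPAM (27.2 ± 1.86), PNPLA2 (25.6 ± 1.09) and DGAT1 (10.2 ± 0.44, SD, n = 3). LPIN3, AGPAT2, DGAT2, PNPLA3 and LPIN1 followed with means of 8.27 to 3.43 FPKM. In the controls the order was PLIN2 (102 ± 2.94), PNPLA2 (22.9 ± 2.01), GPAM (21.8 ± 3.56), DGAT1 (15.4 ± 1.45) and LPIN2 (12.3 ± 0.831, SD, n = 3), followed by DGAT2, AGPAT2, PNPLA3, LPIN3 and LPIN1 with means of 11.3 to 1.69 FPKM. The ranges of neighbours overlapped for GPAM and PNPLA2 and for LPIN3 and AGPAT2 in knockdown libraries, and for PNPLA2 and GPAM, LPIN2 and DGAT2, and AGPAT2 and PNPLA3 in controls. LPIN2 thus ranked just below PLIN2 in knockdown libraries and below DGAT1 in controls. Among all genes with a count, its FPKM lay at percentiles 95.6 to 96.3 in knockdown and 82.8 to 84.9 in control libraries. DGAT2 lay at 73.4 to 74.2 in knockdown and 82.8 to 83.6 in control libraries. The number of genes with a count was higher in every knockdown library, and PNPLA2, which did not pass, lay at 92.8 to 93.4 in knockdown and 90.5 to 91.4 in control libraries.

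Fold changes in this comparison followed the base composition of genes, and the 10 genes were set against that trend. Genes tested with a GC content of 40 to 45% had a median log2 fold change of 0.28, and those of 60 to 65% one of -0.31. LPIN3, at 58.6% GC, rose by 1.08 where genes of 55 to 60% had a median of -0.27. PLIN2 and LPIN2, both at 48.9%, lay on opposite sides of a median of 0.02. DGAT2 and PNPLA3 (52.2 and 54.0%) were below the median of -0.16 for 50 to 55%. AGPAT2 (65.9%) lay close to the median of -0.44 above 65%, and GPAM (41.0%), at 0.12, near the 0.28 of its range. PNPLA2 (64.5%), at -0.04, lay above the median of -0.31 for 60 to 65%. With GC and length offsets the log2 fold changes were 1.41 for LPIN2, 1.23 for LPIN3, 0.55 for LPIN1 and 0.21 for PNPLA2. They were -0.02 for AGPAT2, -0.40 for GPAM, -0.58 for DGAT1, -1.24 for DGAT2, -0.90 for PNPLA3 and -0.73 for PLIN2.

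**Figure D4:**
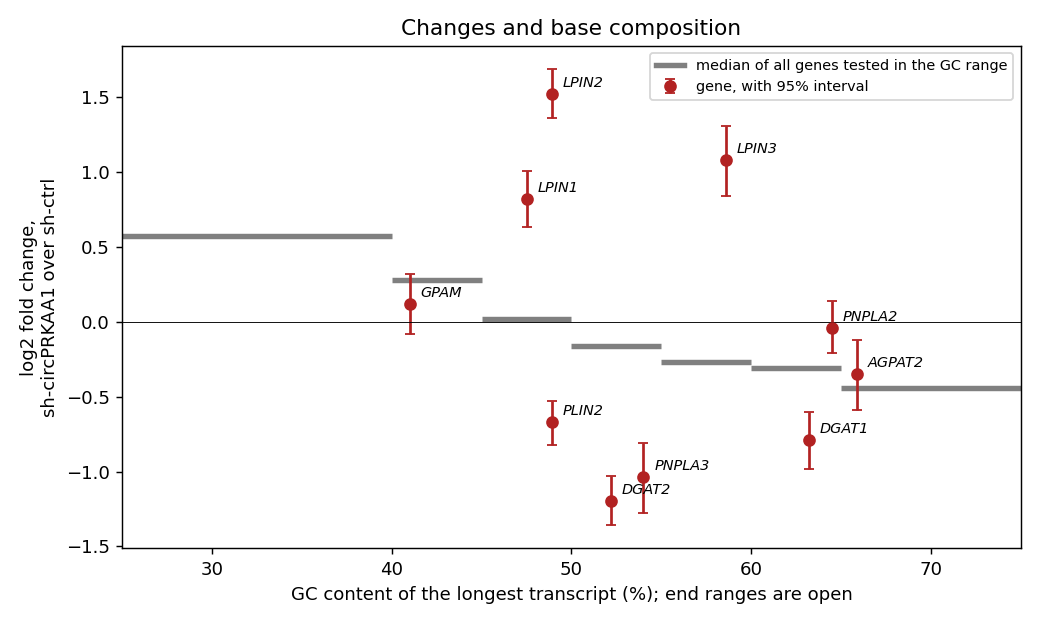
Log2 fold change (y axis, sh-circPRKAA1 over sh-ctrl, edgeR) of the 10 genes against the GC content of the longest transcript (x axis, percent), with 95% intervals; grey lines are medians of all genes tested in each GC range. The medians run from 0.57 at up to 40% to -0.44 above 65%. The lipins and PNPLA2 lie above them, DGAT1, DGAT2, PNPLA3 and PLIN2 below, and GPAM and AGPAT2 near them.

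Other genes of the pathway were counted in 6 lists of 63 genes, of which 54 passed the filter, 17 were higher, 19 lower and 18 did not pass. The 36 called genes of 54 stand beside 68.4% of all genes tested, and the balance of directions turned with scaling: 24 were higher and 11 lower with TPM scaling, 23 and 15 with library totals, and 14 and 28 with GC and length offsets. The counts of single lists below are small and are read against the same 68.4%. Acyl-CoA synthetases activate fatty acids for the acyltransferase steps. All 5 were called, 3 higher and 2 lower. ACSL4, which prefers arachidonic acid, had 432, 410 and 441 CPM in knockdown and 114, 178 and 158 CPM in control libraries (log2 fold change 1.51, edgeR adjusted p = 1.53e-08). ACSL3, found on nascent droplets, rose by 1.28 and ACSL5 by 0.68, while ACSL1, the main form in adipose tissue, fell by 1.08 and stood at 5.88 ± 0.463 CPM in knockdown and 12.5 ± 0.938 CPM in control libraries (SD, n = 3 each). With GC and length offsets ACSL4 and ACSL3 were at 0.89 and 0.66. Of 10 other acyltransferases tested 4 were higher, 3 lower and 3 did not pass. GPAT4, the endoplasmic reticulum counterpart of GPAM, rose by 0.36, and MOGAT2, which acylates monoacylglycerol, fell by 0.71. AGPAT3 fell by 0.40 and did not pass under TPM scaling (-0.11), and AGPAT4 rose by 2.03 from low levels, with 1.74 ± 0.0110 CPM in knockdown and 0.414 ± 0.128 CPM in control libraries (SD, n = 3 each).

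At the diacylglycerol branch, 3 of 10 genes were higher, 4 lower and 3 did not pass. PCYT2, which makes the activated ethanolamine used for phosphatidylethanolamine, had 120, 125 and 122 CPM in knockdown and 435, 360 and 392 CPM in control libraries, with no overlap (log2 fold change -1.69, edgeR adjusted p = 7.52e-11). PEMT, which methylates phosphatidylethanolamine to phosphatidylcholine, fell by 0.74, and CHPT1, a choline phosphotransferase, by 0.56. With GC and length offsets PEMT was at -0.42 and CHPT1 at -1.37. CEPT1, which handles both head groups, rose by 0.64 but was at -0.17 and did not pass with these offsets. CTDNEP1 and CNEP1R1, the phosphatase pair that activates lipins, had log2 fold changes of -0.15 and 0.22 and did not pass.

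Among 7 lipolysis genes tested of 10, 2 were higher, 2 lower and 3 did not pass. CES1, a liver carboxylesterase, fell by 0.64, and HILPDA, an inhibitor of PNPLA2, by 0.73. HILPDA did not pass with limma on log2(FPKM + 1) without the low-count filter (-0.44). ABHD5, the coactivator of PNPLA2, rose by 0.64 and DDHD2 by 0.24. With GC and length offsets ABHD5 lay at 0.00 and DDHD2 at -0.18, where DDHD2 passed as lower. DDHD2 also did not pass without a low-count filter (0.21) or when control replicate 1 (0.15), knockdown replicate 1 (0.24) or knockdown replicate 3 (0.21) was left out. G0S2, the other PNPLA2 inhibitor in the list, and the lipases LIPE and MGLL were under the filter, with at most 0.298 CPM on average in either group. Of 13 tested genes of droplet coats and assembly 2 were higher, 5 lower and 6 did not pass. METTL7A, a droplet methyltransferase-like protein, had 62.5, 68.6 and 71.0 CPM in knockdown and 166, 188 and 170 CPM in control libraries (log2 fold change -1.38, edgeR adjusted p = 7.3e-10). AUP1 fell by 0.58, RAB18, a droplet GTPase, rose by 1.03 and PLIN5, the perilipin of oxidative tissues, by 1.81 at 2.33 to 2.99 CPM in knockdown and 0.521 to 1.06 CPM in control libraries. With the offsets RAB18 was at 0.41 and AUP1 at -0.33.

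Of 9 transcription factors of lipid genes 3 were higher, 3 lower and 3 did not pass. SREBF1 and MLXIPL, which encodes the carbohydrate sensor ChREBP, fell by 1.11 and 0.46, and the change of MLXIPL did not pass under TPM scaling (-0.16). PPARD and PPARG, nuclear receptors for fatty acids, rose by 0.72 and 0.65, with PPARG at 30.0, 32.0 and 28.0 CPM in knockdown and 17.6, 19.3 and 20.2 CPM in control libraries. The genes whose log2 CPM followed that of LPIN2 most closely over the 6 libraries were TEP1, CD109 and NR2F1, with Pearson correlations of 0.9996, 0.9995 and 0.9995. The points are 2 groups of 3 libraries, and 439 of 14980 genes were above 0.99.

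**Figure D5:**
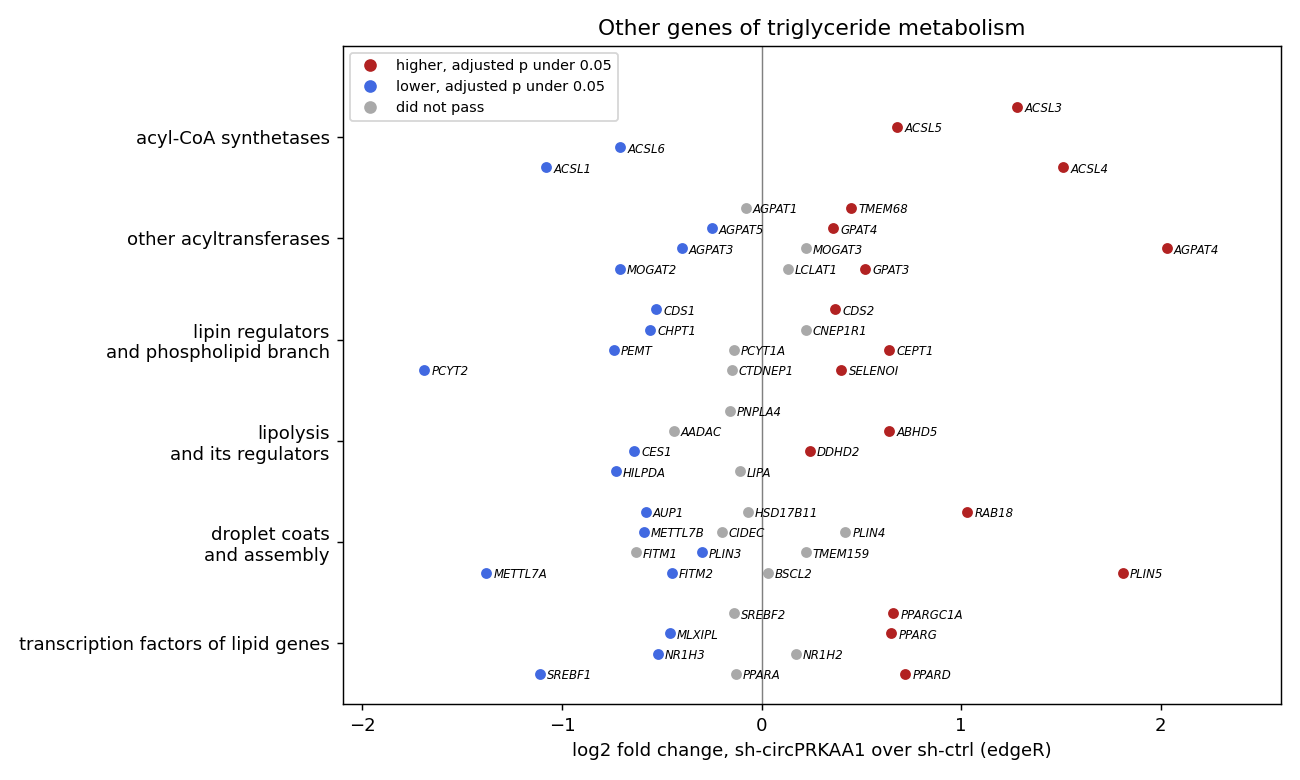
Log2 fold change (x axis, sh-circPRKAA1 over sh-ctrl, edgeR) of the 54 tested genes in 6 lists of related function (y axis; vertical scatter only separates names); red is higher and blue lower at an adjusted p under 0.05, grey did not pass. Every list holds genes on both sides of 0, from PCYT2 at -1.69 to AGPAT4 at 2.03.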

How the data were processed

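Gene expression was measured by RNA-seq in 6 HepG2 samples; the kit was SMARTER mRNA-Seq, per the labels' protocols. Groups came from sample titles. The authors deposited whole-number counts and FPKM per Ensembl gene, and exonic lengths, per the file headers; the sources used here name no aligner, counting program or strand setting. Genome builds GRCm38, mm10 and hg18 are listed without a role, per the submitters' processing notes; 96.3% of gene IDs were in GENCODE 29 and 99.98% of those overlapped its GRCh38 coordinates. FPKM deposited by the authors equalled count per exonic length and library total within 0.005 in the 5 numbered columns; 1 column without a number was not used, and FPKM was computed for all libraries.

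Counts were tested with edgeR 4.0.16 in R 4.3.3 (filterByExpr, minimum count 10, minimum total count 15; TMM; quasi-likelihood test of knockdown against control in all 6 libraries), with Benjamini-Hochberg values over 14990 genes and a threshold of 0.05. SE is the log2 fold change over the square root of F. Log2 CPM used a prior count of 2. The test was also run on simulated counts of 14707 genes tested. Of these, 100 were changed 1.5-fold and 99 2-fold, balanced up and down and drawn from genes above a count floor. The test recovered 74% of the 1.5-fold and 96% of the 2-fold changes, with 19 false calls. In the data 68.4% of genes were called, so these rates may not carry over to this comparison. Shares used exact permutation (scipy 1.17.1). Alternatives were filters, scalings, DESeq2 1.42.0, limma 3.58.1 on log2(FPKM + 1), protein-coding genes, the replicate number as a block, each library left out, and GC and length offsets, fitted as smooth curves in each library (mgcv 1.9.3; a GC value for 99.2% of genes). The labels do not state separate cultures, so p-values rest on a spread between libraries that may be technical; all pairs within a group differed beyond sampling noise (chi-square 3.83 to 15.5 for each degree of freedom). The members and lists were chosen with earlier results of these data known. Genes named are the 10 members, up to 4 genes with the smallest p per list, SREBF1, and the 3 nearest in pattern to the member with the smallest p; others in the text were chosen after their values were seen.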

Additional observations from a re-analysis of the deposited data

How the results depend on the processing

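LPIN1, LPIN2, LPIN3, DGAT1, DGAT2, PNPLA3 and PLIN2 kept their direction and their call in each of 21 alternatives, and AGPAT2, GPAM and PNPLA2 did not. AGPAT2 kept its direction and lost its call in 8 of 21. GPAM turned to -0.40 with GC and length offsets, to -0.40 with these offsets and the replicate block, and to -0.02 without control replicate 1. PNPLA2 turned to 0.16 with library totals, 0.02 with upper quartile scaling, 0.26 with TPM scaling, 0.13 with quantile normalization, 0.16, 0.17 and 0.16 with limma (pseudocounts of 1 and 0.1, and no filter), 0.21 with the offsets, with and without the block, and lay between -0.12 and 0.03 when 1 library was left out (0.03 without control replicate 1). The median of the 10 genes turned to 0.01 with library totals and in the 3 limma fits and to 0.10 with TPM scaling, and was -0.10 with quantile normalization. It was -0.28 to -0.19 when 1 library was left out. With TPM scaling 5 of the 10 genes were called higher, and 24 pathway genes higher and 11 lower, against 14 and 28 with the offsets. The median log2 change of all genes was 0.05 under TMM, 0.25 under library totals and 0.34 under TPM scaling. The share of calls that were higher was 52.7% under TMM, and 65.7% (library totals), 71.6% (TPM scaling) and 41.9% (offsets) in other fits. Correlations of same-numbered deviations were -0.092, -0.149 and 0.041. With 3 libraries a group, these cannot settle whether replicate numbers pair the libraries. With the replicate block 8 of the 10 genes were called, 3 higher and 5 lower, as without it. The cause of these changes was not tested. The shares of DGAT2, LPIN1 and PNPLA3, and those of LPIN2 and LPIN3, for which the alternatives were chosen after seeing the data, kept their direction with counts in place of FPKM, the offsets, the block and each library left out (-1.05 points for LPIN3 with the offsets). With 3 libraries a group their exact test could not pass 0.05. AGPAT2 and PNPLA3 had the fewest counts of the 10 genes on average, 231 to 329 and 222 to 529 per library, and the part of depth was not tested.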
